A study of Mus musculus with 6 samples.

Results

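Respiratory complex I, the NADH:ubiquinone oxidoreductase of the inner mitochondrial membrane, was examined at the level of its nuclear-encoded subunit transcripts in mouse retina. Members were all gene symbols made of Nduf, a letter a, b, c, s or v, and a number, whose mean FPKM over the 6 libraries was 1 or more (FPKM counts sequenced fragments relative to the length of the transcript and to all mapped fragments). All 36 symbols of that form passed the minimum, out of 24346 symbols listed and 13215 that reached the same minimum, which were the genes tested. The libraries came from retina labelled Cyfip2 CKO (a conditional knockout of Cyfip2, whose product belongs to the WAVE complex that controls actin branching) or Cyfip2 WT, with 3 libraries of each. The labels do not give the Cre line, the promoter that drives it, the cells in which it acts, the strain or the age. They speak of retinas in the plural and do not say how many eyes or animals went into a library, so p-values here measure the spread between libraries, which may be technical.

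Complex I takes electrons from NADH at a flavin site, passes them along a row of iron-sulfur clusters in the arm that projects into the mitochondrial matrix, and hands them to ubiquinone where that arm meets the membrane. The membrane arm pumps protons and is built around subunits encoded by mitochondrial DNA, while the catalytic core of the matrix arm and the many accessory subunits are encoded in the nucleus and imported. Photoreceptors, which form most of the cells of the mouse retina, pack their inner segments with mitochondria, and loss of complex I function is a known cause of optic nerve disease. Of the 7 core genes of mitochondrial DNA (mt-Nd1 to mt-Nd6 with mt-Nd4l), 0 were found under these symbols, and they were not analysed here.

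The labels and the tissue were checked first. Cyfip2 was at 8.33, 10.2 and 11.2 FPKM in CKO 1, 2 and 3 and at 35.5, 63.1 and 62.3 FPKM in WT 1, 2 and 3, which put the CKO mean at 18.5% of the WT mean (limma adjusted p = 0.0239). Summed FPKM lay between 402832 and 436299 per library, and 13149 to 13242 genes reached 1 FPKM. The files hold no counts. Read from the steps of low values, relative depth ranged from 1 in WT 1 to 1.29 in CKO 2, with 69.2% to 73.9% of values on small whole ratios, so counts were not recovered. The 13 rod photoreceptor markers summed to 18032 to 20267 FPKM, and 7 cornea and conjunctiva markers summed to less than 1 FPKM in every library, the highest being 0.988.

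Complex I subunits were abundant transcripts of the retina. The median member had a mean of 104.9 FPKM over the 6 libraries, and 21 of the 36 had means of at least 100 FPKM. FPKM is a value per length, so levels of different genes were compared on that scale. Ndufa4 led with 643 FPKM, 2.76 times the level of the next member. Its product was first described as a complex I subunit and is now assigned to cytochrome c oxidase (complex IV). Next came Ndufa3 (233 FPKM) and Ndufb8 (229 FPKM), small accessory subunits of the membrane arm, and Ndufv3 (223 FPKM), an accessory subunit bound near the flavin site. The lowest was Ndufa11 at 16.8 FPKM, an accessory subunit of the membrane arm. The members thus spanned a 38.2-fold range with Ndufa4 included. Without Ndufa4, whose product is assigned to complex IV, they ran from 16.8 to 233 FPKM.

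Most neighbours in this order could not be separated. Ranges over the 6 libraries overlapped in 32 of the 35 neighbouring pairs, and the gaps lay below Ndufa4, between Ndufa9 (66.1 FPKM) and Ndufv2 (51.4 FPKM), and between Ndufs1 (48.9 FPKM) and Ndufs4. When the WT 3 value of Ndufs5, which is close to 0, was left out, Ndufs5 averaged 40.8 FPKM over 5 libraries and ranked above Ndufs4, 31 of the 35 pairs overlapped, and a further gap lay between Ndufs4 and Ndufa11. Ndufs4, an accessory subunit of the matrix arm whose loss in mice is the usual model of Leigh syndrome, was among the lowest members, at a mean of 35.6 FPKM in CKO against 34.4 in WT. The order was close to the same in both genotypes: without Ndufs5, Spearman's rho between CKO and WT mean levels was 0.975 over 35 members, and Pearson's r on the log2 scale was 0.993. These correlations are across genes that share libraries and lengths and are given as a description.

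The main comparison asked whether retina labelled CKO differed from WT retina in the transcripts of complex I. Most member levels in CKO were close to those in WT, with 29 of 36 having a ratio of group means within 10% of 1. The share of all tested genes was not formed for that count. Of the 36 log2 fold changes, 28 were below 0 and 8 above 0 (77.8% below 0, against 50.5% of all tested genes), and their median was -0.04, against -0.0016 over all tested genes. Without Ndufs5, whose value in WT 3 is close to 0, 28 of 35 were below 0, with a median of -0.04. Fold changes are on the log2(FPKM + 1) scale, CKO against WT.

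No member passed the test at an adjusted p under 0.05 (limma with Benjamini-Hochberg adjustment over all 13215 tested genes), while 3 of all tested genes did, or 0.0227%. The lowest adjusted p of a member was 0.269, for Ndufb2. At an unadjusted p under 0.05, 5 members were lower in CKO, beside 4.36% of all tested genes, and 0 were higher, beside 3.52%. Every CKO library lay below every WT library for 8 members, beside 6.95% of all tested genes, namely Ndufb2, Ndufa12, Ndufb6, Ndufc2, Ndufs8, Ndufv2, Ndufa10 and Ndufs1. Ndufs5 was the only member of the 36 with every CKO library above every WT library, beside 6.96% of all tested genes. The 95% intervals of 27 members lay within a 1.25-fold change in either direction, and those of 34 within a 1.5-fold change. For these interval counts too, no share of all tested genes was formed.

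**Figure D1:**
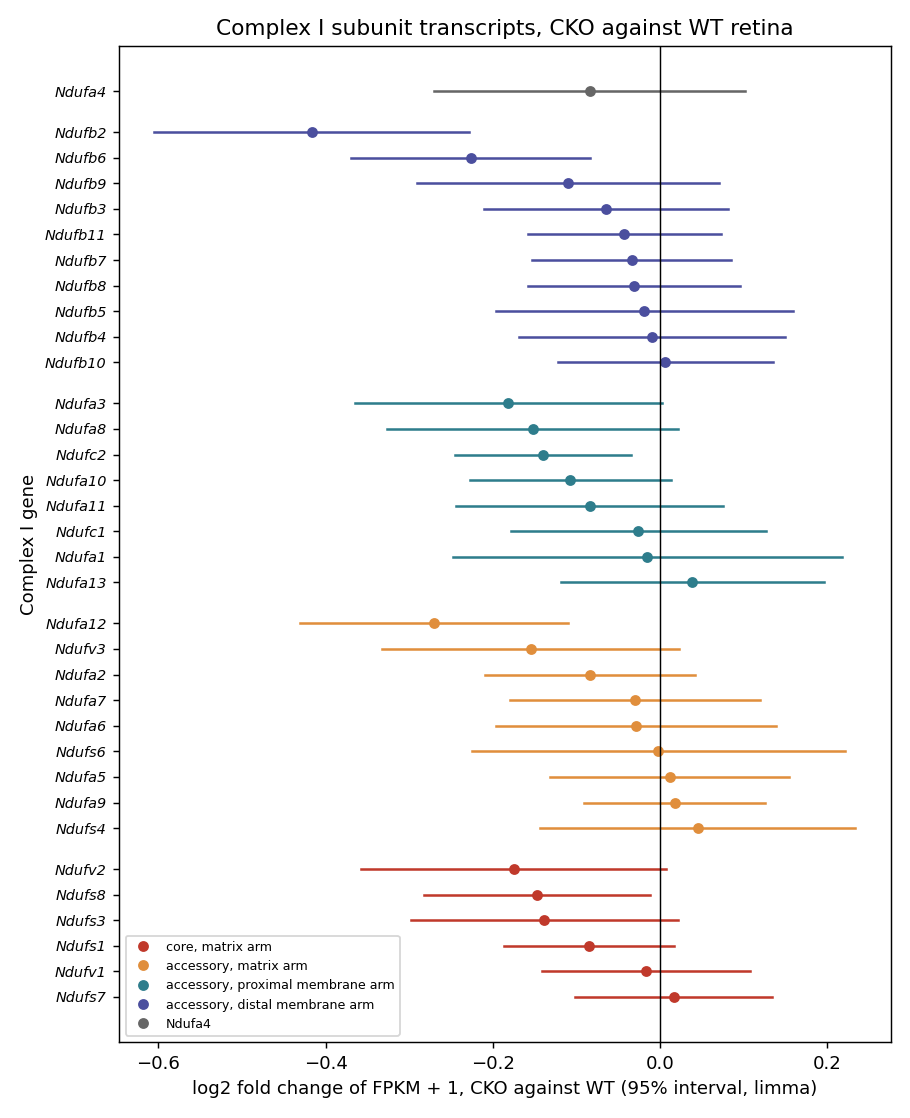
Log2 fold change of FPKM + 1, CKO against WT, for 34 complex I genes with 95% limma intervals, grouped by arm of the complex (Ndufs5 is not drawn because its interval runs from -0.80 to 4.87). Points lie between -0.42 (Ndufb2) and 0.04 (Ndufs4), and the intervals of 5 genes lie wholly below 0.

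The 7 core subunits of the matrix arm together carry the flavin and the iron-sulfur clusters. Of these, 5 had log2 fold changes below 0, with a median of -0.08, and none passed the test. Ndufs8, which encodes the subunit holding a pair of clusters near the quinone site, was at 65.3, 67.4 and 63.5 FPKM in CKO and 71.0, 68.4 and 78.4 FPKM in WT. The groups did not overlap, although the highest CKO library and the lowest WT library were close. Its log2 fold change was -0.15 (SE 0.06, limma adjusted p = 0.601).

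Ndufv2, the subunit with the cluster set off from the main electron path, was at 48.6, 48.8 and 47.0 FPKM in CKO and at 49.8, 52.1 and 62.1 FPKM in WT. The CKO libraries were tightly grouped, and the size of the difference came largely from WT 3, the highest library. The log2 fold change was -0.18 (SE 0.08, limma adjusted p = 0.65) with all libraries and -0.08 without WT 3. Ndufs1, which encodes the largest core subunit of the matrix arm, was at 47.9, 47.9 and 46.7 FPKM in CKO and 51.7, 48.8 and 50.7 FPKM in WT. Its groups did not overlap, and the log2 fold change was -0.08 (SE 0.04, limma adjusted p = 0.701). Ndufs3, a core subunit that carries no cluster, was at 73.9, 77.1 and 82.6 FPKM in CKO and 81.3, 82.3 and 94.2 FPKM in WT. There CKO 3 lay above WT 1 and WT 2, and the log2 fold change was -0.14 (SE 0.07, limma adjusted p = 0.695).

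Ndufs7 and Ndufv1 were level. Ndufs7, whose product carries the last cluster before ubiquinone, was at 91.1, 82.2 and 84.9 FPKM in CKO and 86.3, 86.5 and 82.4 FPKM in WT, with a log2 fold change of 0.02 (SE 0.05, limma adjusted p = 0.961). Ndufv1, which encodes the flavin and NADH-binding subunit, was at 96.5, 102.2 and 109.3 FPKM in CKO and 101.6, 106.6 and 103.2 FPKM in WT. Its groups overlapped fully, and the 95% interval of its log2 fold change ran from -0.14 to 0.11 (limma adjusted p = 0.961).

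The 9 accessory subunits of the matrix arm had a median log2 fold change of -0.03, with 6 below 0. Ndufa12, a small subunit near the junction of the arms that replaces an assembly factor late in the building of the complex, was at 86.1, 94.7 and 104.6 FPKM in CKO and at 117.0, 112.1 and 114.6 FPKM in WT. All 3 WT libraries were above all 3 CKO libraries, and the spread within CKO (SD 9.28) was larger than within WT (SD 2.49). The log2 fold change was -0.27 (SE 0.07, limma adjusted p = 0.409), and it lay between -0.34 and -0.20 when each library was left out in turn.

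Ndufv3, the accessory subunit near the flavin site, was at 188.3, 213.7 and 232.0 FPKM in CKO and 226.6, 230.8 and 246.8 FPKM in WT. CKO 3 lay above WT 1 and WT 2, and the log2 fold change was -0.15 (SE 0.08, limma adjusted p = 0.692). The other 7 genes of this arm had log2 fold changes between -0.08 (Ndufa2) and 0.04 (Ndufs4), with overlapping groups in each. Among them Ndufs6, the subunit that carries a zinc ion, averaged 106.5 FPKM in CKO against 107.0 in WT, and Ndufa9, which stabilises the junction between the arms, was at 66.5 FPKM and 65.7 FPKM.

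The accessory subunits of the proximal membrane arm, the end next to the matrix arm, number 9 with Ndufs5 and 8 without it. Without Ndufs5, 7 of 8 had log2 fold changes below 0, with a median of -0.10. Ndufc2, an accessory subunit at the base of the membrane arm, was at 101.1, 96.0 and 92.4 FPKM in CKO and at 106.7, 106.4 and 106.0 FPKM in WT. The WT libraries were almost identical (SD 0.365), and all lay above CKO. On the log2 scale the difference was -0.14 (SE 0.05, 95% interval -0.24 to -0.03, limma adjusted p = 0.53).

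Ndufa3, the most abundant member after Ndufa4, was at 244.6, 203.9 and 208.5 FPKM in CKO and at 251.9, 230.2 and 261.9 FPKM in WT. CKO 1 lay above WT 2, and the log2 fold change was -0.18 (SE 0.08, limma adjusted p = 0.639). Ndufa8, which encodes a twin-cysteine protein of the intermembrane space side, was at 80.1, 74.3 and 92.4 FPKM in CKO and 90.7, 89.8 and 93.0 FPKM in WT. CKO 3 was within the WT range, and the log2 fold change was -0.15 (SE 0.08, limma adjusted p = 0.69). Ndufa10, a subunit with a nucleoside-kinase fold that is phosphorylated in the PINK1 pathway, was at 84.4, 84.4 and 83.0 FPKM in CKO and 97.2, 87.3 and 87.4 FPKM in WT. Its groups did not overlap, WT 1 was the highest library, and the log2 fold change was -0.11 (SE 0.05, limma adjusted p = 0.678). Ndufa13, also known as Grim19, had the only value above 0 among the 8, at a mean of 68.6 FPKM in CKO against 66.8 in WT.

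Ndufs5, a twin-cysteine accessory subunit on the intermembrane space side, was at 44.0, 42.9 and 45.8 FPKM in CKO and at 30.8, 40.4 and 0.0177 FPKM in WT. WT 3 stood apart from the other 5 libraries. Of 7572 genes with a median of at least 10 FPKM, 5 fell like this in 1 library. They were there under 1% of the median of the other libraries, with no other library far below that median. The genes besides Ndufs5 were Rpl30 in WT 1 and the small RNA genes Mir6244, Snora64 and Snora81. With all libraries the log2 fold change of Ndufs5 was 2.04 (SE 1.23, 95% interval -0.80 to 4.87, limma adjusted p = 0.752). Without WT 3 the WT mean was 35.6 FPKM and the log2 fold change was 0.32 (SE 0.11, limma adjusted p = 0.699), so the estimate rests on WT 3 and neither value passed the test.

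The annotation holds a near-identical processed copy of Ndufs5, BC002163, on another chromosome, and the files list both. Their sequences are shown because reads from the stretch they share can hardly be told apart. That stretch is 319 of the 680 bases of the Ndufs5 transcript. The first 300 coding bases of Ndufs5 are given spliced, within chr4:123712843-123716079 on the minus strand, and the matching stretch of BC002163 is chr16:42955631-42955930 on the plus strand (both GRCm38); capitals mark the bases that differ.
Ndufs5: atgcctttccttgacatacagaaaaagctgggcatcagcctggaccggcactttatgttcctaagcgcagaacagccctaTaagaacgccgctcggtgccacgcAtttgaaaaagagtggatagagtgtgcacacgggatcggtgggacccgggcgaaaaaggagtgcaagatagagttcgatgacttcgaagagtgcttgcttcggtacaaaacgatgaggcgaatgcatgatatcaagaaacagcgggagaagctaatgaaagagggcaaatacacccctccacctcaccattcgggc
BC002163: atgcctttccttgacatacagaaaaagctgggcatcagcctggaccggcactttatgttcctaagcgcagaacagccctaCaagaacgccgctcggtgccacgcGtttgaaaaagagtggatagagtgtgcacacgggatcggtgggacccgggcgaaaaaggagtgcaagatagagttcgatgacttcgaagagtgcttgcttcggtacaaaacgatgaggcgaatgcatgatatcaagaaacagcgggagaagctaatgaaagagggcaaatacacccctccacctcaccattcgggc
Over the 319 bases of BC002163 there were 2 differences, T81C and A105G (Ndufs5 base first, positions counted from 1 at the A of the ATG), or 99.4% identity.

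BC002163 was at 116.1, 86.9 and 72.0 FPKM in CKO and at 102.5, 94.6 and 128.9 FPKM in WT, so it was highest in WT 3, the library in which Ndufs5 was close to 0. Ndufs5 made up between 23.1% and 38.9% of the sum of both values in the other 5 libraries and 0.0137% in WT 3. The sum itself was 160.1, 129.8 and 117.8 FPKM in CKO and 133.3, 135.0 and 128.9 FPKM in WT, and WT 3 lay within the CKO range. Fitted as 1 feature, an alternative added after these values were seen, the sum had a log2 fold change of 0.03 (SE 0.10, 95% interval -0.21 to 0.26, limma adjusted p = 0.967). The sum adds values scaled to different lengths and is not a transcript level, and the sources used here do not say how the authors assigned reads that match both loci.

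**Figure D2:**
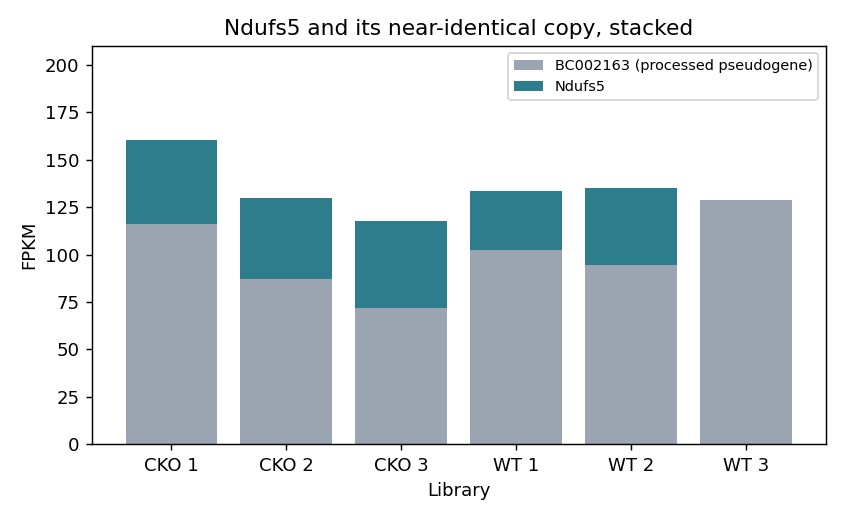
FPKM of Ndufs5, of its processed copy BC002163 and of their sum in each of the 6 libraries. In WT 3 Ndufs5 is at 0.0177 FPKM and BC002163 at its highest, 128.9 FPKM, while the sum stays between 117.8 and 160.1 FPKM in all 6 libraries.

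The 10 accessory subunits of the distal membrane arm, the far end of the proton-pumping part, had 9 log2 fold changes below 0 and a median of -0.04. Ndufb2 had the lowest fold change of all 36 members. It was at 73.7, 70.2 and 75.4 FPKM in CKO and at 93.2, 89.9 and 111.9 FPKM in WT, which put the CKO mean at 74.3% of the WT mean. The groups were separated by a gap, and WT 3 was the highest library. The log2 fold change was -0.42 (SE 0.08, 95% interval -0.60 to -0.23, limma adjusted p = 0.269). It stayed between -0.48 and -0.32 with each library left out in turn, with adjusted p between 0.299 and 0.776. Ndufb2 lies at chr6:39592574-39603382 on the plus strand (GRCm38). It overlaps 3 annotated genes, 1 of them on the same strand: Braf, Gm16272 and Gm42420. Braf averaged 22.5 FPKM in CKO against 23.2 in WT, and the part of overlapping genes in the Ndufb2 values was not tested.

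Ndufb6, a single-pass membrane subunit of the distal arm, was at 84.3, 81.7 and 82.9 FPKM in CKO and at 89.9, 96.4 and 106.1 FPKM in WT. The CKO libraries lay within a narrow band (SD 1.28) under all WT libraries. Ndufb6 had a log2 fold change of -0.23 (SE 0.06, 95% interval -0.37 to -0.08, limma adjusted p = 0.438). The other 8 distal genes had log2 fold changes between -0.11 (Ndufb9) and 0.01 (Ndufb10), with overlapping groups in each. Ndufb8, whose protein is widely used as a marker of assembled complex I, averaged 226.5 FPKM in CKO against 231.5 in WT.

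**Figure D3:**
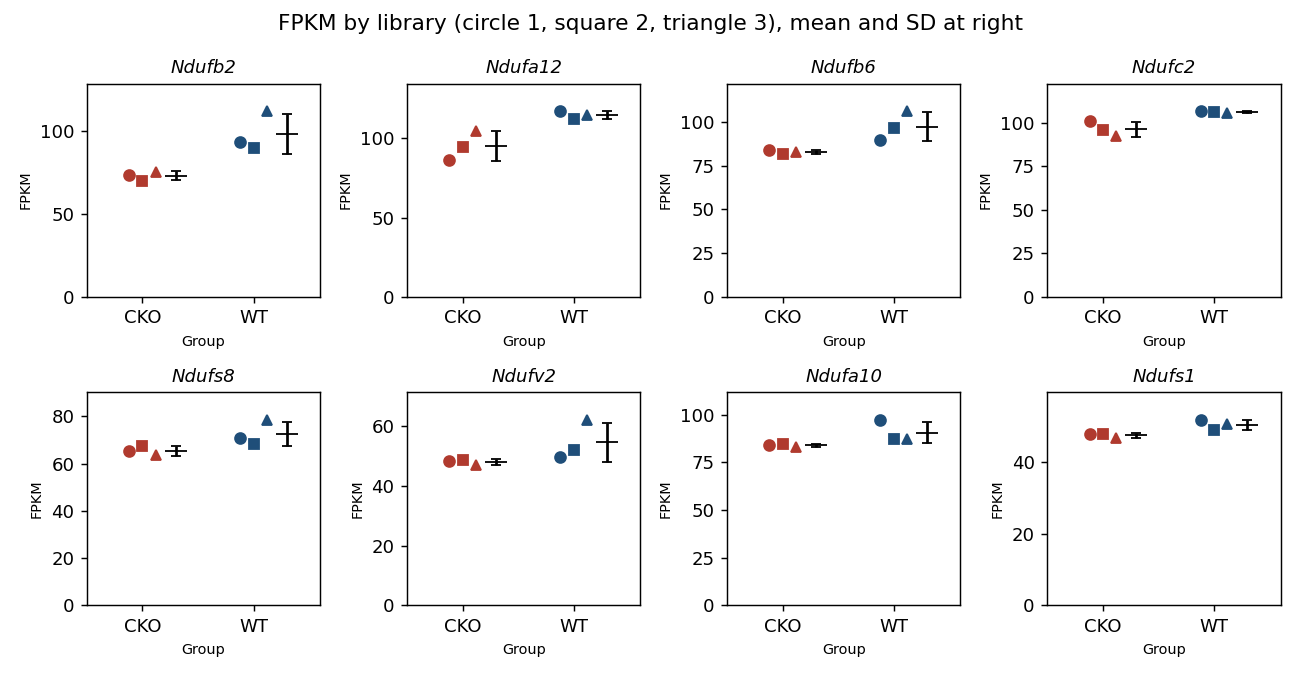
FPKM of 8 complex I genes in each library (1 panel a gene, axis from 0; circle, square and triangle for libraries 1, 2 and 3), with the mean and SD of each group to the right of its points. The 8 genes drawn are those of the 36 members in which every CKO library lies below every WT library, beside 6.95% of all tested genes. The gap is widest for Ndufb2 (means of 73.1 and 98.3 FPKM).

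Ndufa4 was at 589.4, 643.0 and 638.0 FPKM in CKO and at 623.2, 618.1 and 747.9 FPKM in WT. WT 3 was far above the other 5 libraries, which overlapped. The log2 fold change was -0.08 (SE 0.08, 95% interval -0.27 to 0.10, limma adjusted p = 0.843) and 0.0054 without WT 3.

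Across the members, the libraries were not alike within WT. For the 35 genes without Ndufs5, the median log2 deviation from each gene's mean over the 6 libraries was -0.05, -0.05 and -0.0078 in CKO 1, 2 and 3 and 0.0017, 0.01 and 0.10 in WT 1, 2 and 3. WT 3 was the highest of the 6 libraries for 19 of the 35 members and the lowest for 0, while it was highest for 20.0% and lowest for 19.4% of all tested genes. CKO 1 was the lowest library for 11 members and for 20.8% of all tested genes, the highest such share of the 6 libraries. Without WT 3, the median log2 fold change of the 36 members was -0.02, with 22 below 0. With another library left out in its place, the median ran from -0.07 (without WT 1) to -0.05 (without CKO 2). WT 3 was thus the library on which the size of the shift rested most, and its part in the result cannot be told apart from genotype with 3 libraries per group.

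**Figure D4:**
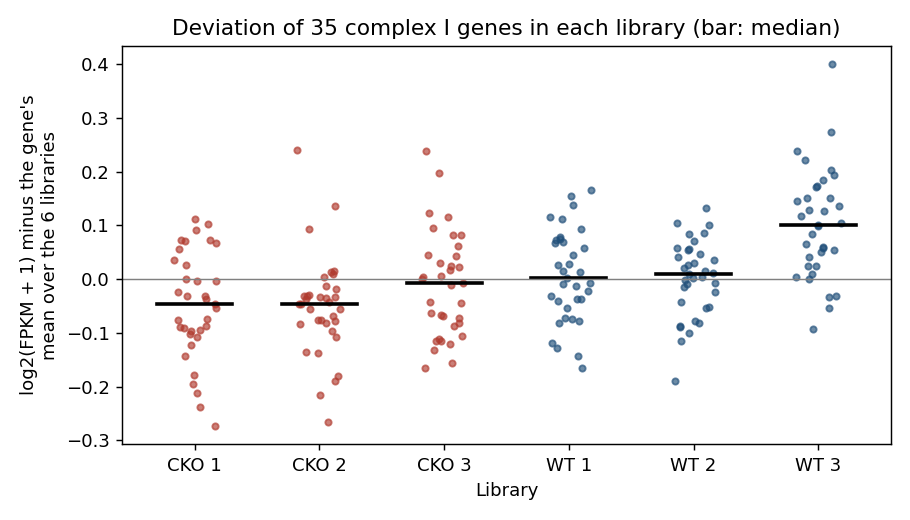
Log2 deviation of each of 35 complex I genes from its mean over the 6 libraries, by library, with the median marked. The median is 0.10 in WT 3 and between -0.05 and 0.01 in the other 5 libraries.

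The members' transcripts were short, and the values moved when trends with length and GC content were removed together. The longest coding transcript of the members had a median length of 944.5 bases against 3189 bases over tested genes, and 35 of 36 members were shorter than the tested median. That removal used the 12739 tested genes with both properties. After it the median of the members was -0.0119, against 0.0011 over all genes in that fit. Of the 36 members 20 were below 0, beside 49.5% of all genes in that fit. Ndufb2 had a log2 fold change of -0.41 there (limma adjusted p = 0.29). Its longest coding transcript, 4371 bases, is the only one above the tested median. The removal used that length, and which Ndufb2 transcript the retina expresses was not tested. In that fit 3 members were lower at an unadjusted p under 0.05, beside 3.75% of its genes. The parts of length and of GC content were not tested separately.

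The genes that assemble complex I were read from a separate list. Of 17 assembly factors, 7 had log2 fold changes below 0, with a median of 0.04, and none passed the test. Chchd4, the intermembrane space import receptor for twin-cysteine proteins, was at 20.7, 21.5 and 20.7 FPKM in CKO and 18.0, 16.1 and 19.0 FPKM in WT, with a log2 fold change of 0.24 (limma adjusted p = 0.477). Tmem186, part of the assembly complex of the membrane arm, averaged 14.2 FPKM in CKO against 12.8 in WT (limma adjusted p = 0.65). Ndufab1, the acyl carrier protein that is a subunit of complex I but falls outside the symbol rule, was at 45.1, 43.7 and 39.3 FPKM in CKO and 65.0, 50.9 and 55.5 FPKM in WT. All of its CKO libraries were below WT, as for Ndufb2, with a log2 fold change of -0.41 (SE 0.09, limma adjusted p = 0.34).

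The other complexes of the respiratory chain were read beside complex I. Complex IV had 10 of 11 subunits below 0 with a median of -0.07. At an unadjusted p under 0.05, complex IV had 4 lower subunits, beside 4.36% of all tested genes. Its subunit Cox5b was at 238.3, 231.1 and 226.1 FPKM in CKO and 287.0, 281.1 and 276.3 FPKM in WT, a log2 fold change of -0.28 (limma adjusted p = 0.158). Complex III had 8 of 9 below 0 with a median of -0.09, and ATP synthase had 10 of 15 below 0 with a median of -0.04. Complex II, which feeds electrons to ubiquinone from succinate, had 3 of 4 below 0 with a median of -0.0047, and its subunit Sdhc averaged 82.3 FPKM in CKO against 73.2 in WT (limma adjusted p = 0.592). None of these genes passed the adjusted test. At an unadjusted p under 0.05, complex III had 1 lower gene, and ATP synthase and complex II had 0. Complex II had 1 higher gene at that level, beside 3.52% of all tested genes. The summed FPKM of complex III, complex IV and ATP synthase subunits was highest in WT 3, as for complex I, at 1619, 3302 and 4397. The sum of complex II subunits was highest in CKO 3, at 345.5 FPKM, and that of assembly factors was lowest in WT 3, at 207.1 FPKM. The sum over all symbols in the files was also highest in WT 3, at 436299 FPKM. The median log2 deviation of all tested genes in WT 3 was 0.0015, against 0.10 for the 35 complex I genes. What raised these sums in WT 3 was not tested. Of 14 regulators of mitochondrial biogenesis, 6 were below 0 with a median of 0.02; Pprc1, a coactivator of the PGC family, averaged 3.84 FPKM in CKO against 3.02 in WT (limma adjusted p = 0.591).

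**Figure D5:**
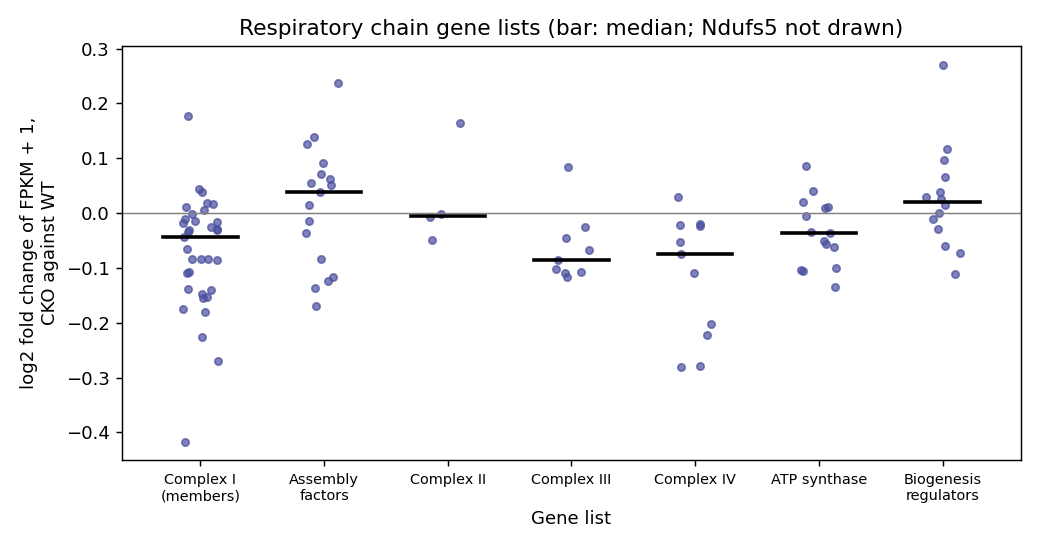
Log2 fold changes, CKO against WT, of single genes in complex I, its assembly factors, the other complexes of the chain and the biogenesis regulators, with each list's median. Medians lie below 0 for complex I (-0.04), complex III (-0.09), complex IV (-0.07) and ATP synthase (-0.04), and above 0 for assembly factors (0.04) and regulators (0.02).

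Photoreceptor markers were read because these cells hold much of the mitochondrial mass of the retina. Of 13 rod markers, 10 had log2 fold changes below 0, with a median of -0.03, and their sums were 18032, 19115 and 19488 FPKM in CKO and 18635, 20048 and 20267 FPKM in WT. Cone markers summed to 641 to 704 FPKM in CKO and 706 to 792 FPKM in WT, with 8 of 9 below 0 and a median of -0.17. In bulk tissue, fewer cells of a type and less RNA per cell cannot be told apart, and the part of photoreceptor content in the complex I values was not tested. Müller glia markers summed to 1850 to 1991 FPKM in CKO and 1824 to 1931 FPKM in WT. Lens markers summed to 34.7 to 64.6 FPKM in CKO and to 52.1, 290.9 and 104.2 FPKM in WT. WT 2, with the highest lens sum, was the highest library for 1 of the 35 members and for 14.8% of all tested genes, and the part of lens content in the values was not tested.

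Promoters were read for shared letters. RefSeq start-site windows of 300 bases (250 before and 50 after the start, GRCm38.p6) were matched for 32 members; Ndufa2, Ndufb9 and Ndufs1 were among those without one. On either strand, the YY1 letters AAGATGGC were in the windows of 7 of the 32 (21.9%), against 5.2% of 9983 tested genes and 2.7% of all 32851 windows. The NRF1 letters GCGCATGC were in 9.4% of members and 6.0% of tested genes. The ETS letters CCGGAAG were in 12.5% and 19.2%, and the SP1 letters GGGCGG in 43.8% and 69.3%. No motif contains another, and 1 pair of matches of different motifs overlapped in the members' windows. The 7 YY1 matches are shown with up to 10 bases on either side, since all lay on the strand of the gene, between 23 and 39 bases after the start, and the ATG within the match was an annotated start codon in 7 of 7; capitals mark the match.
Ndufa3, chr7:3617385-3617412, plus strand: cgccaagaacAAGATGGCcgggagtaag
Ndufa9, chr6:126849098-126849125, minus strand: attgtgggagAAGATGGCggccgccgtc
Ndufb8, chr19:44555393-44555414, minus strand: ggagaaggtgAAGATGGCtgcc
Ndufc1, chr3:51408916-51408943, minus strand: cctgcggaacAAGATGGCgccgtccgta
Ndufs4, chr13:114388045-114388069, minus strand: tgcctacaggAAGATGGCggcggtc
Ndufs6, chr13:73328433-73328459, minus strand: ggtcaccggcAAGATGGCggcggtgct
Ndufs7, chr10:80249463-80249490, plus strand: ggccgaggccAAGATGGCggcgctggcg
These 7 genes had log2 fold changes between -0.18 (Ndufa3) and 0.04 (Ndufs4). A match is a description of letters and no evidence of binding.

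The 150 bases before the start of the pair of distal-arm genes with the lowest fold changes are shown for comparison (GRCm38.p6). Capitals mark letters of the motifs searched, here the SP1 letters on the opposite strand.
Ndufb2, chr6:39592415-39592564, plus strand: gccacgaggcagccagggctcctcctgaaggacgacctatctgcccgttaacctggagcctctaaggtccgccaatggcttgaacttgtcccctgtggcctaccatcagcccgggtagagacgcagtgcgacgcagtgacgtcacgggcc
Ndufb6, chr4:40279422-40279571, minus strand: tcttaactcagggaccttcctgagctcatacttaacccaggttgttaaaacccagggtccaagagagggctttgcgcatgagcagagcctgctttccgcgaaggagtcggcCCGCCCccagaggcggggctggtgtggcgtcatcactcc
The Ndufb2 window held none of the 4 motifs, and the Ndufb6 window held SP1 and ETS letters.

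Gene models limit some of these values. In GENCODE M21, 18 members overlap another annotated gene, 6 of them on the same strand, and 8 have another annotated gene of at least 95% identity over at least 200 bases (Ndufa12, Ndufb11, Ndufb3, Ndufb4, Ndufb9, Ndufs3, Ndufs5 and Ndufs6). For 7 of these the copy does not overlap the member, while that of Ndufb9 overlaps it on the same strand. BC002163 is the only one of these copies that the files list. The libraries were made with a stranded kit, but the sources used here do not say whether the authors' counting used strand, so reads of overlapping genes and of copies may be split for these members.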

How the data were processed

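Messenger RNA of 6 mouse retina libraries (3 labelled Cyfip2 CKO and 3 labelled Cyfip2 WT) was extracted with TRIzol and prepared with a TruSeq stranded mRNA kit, per the labels' protocols. Per the submitters' processing notes, the tools were Cufflinks 2.2.1, TopHat2 2.0.13, SAMtools 1.11 and Bowtie2 2.3.5.1, on the build mm10, with no role stated. The sources used here do not give annotation, strand use or parameters. The authors deposited FPKM values per gene symbol, judged as FPKM from the named tools and the values. Spreadsheet-altered symbols (27, all in WT 3) were restored. No counts are given, so no interval from counting error could be formed.

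Genes whose mean reached 1 FPKM were fitted as log2(FPKM + 1) by limma (version 3.58.1, R version 4.3.3; lmFit and eBayes, trend option on, two-sided, Benjamini-Hochberg adjustment over 13215 genes at a threshold of 0.05). Fold change, SE and adjusted p are given for the 7 core subunits, the 10 members of smallest p, Ndufs5 and Ndufa4, and in other lists for the 2 genes of smallest p at most. The values of 1 member are not reported here, though counts and medians include it. The members and lists were chosen with earlier results of these data known. Alternatives covered pseudocount, filter, scaling, variance model, replicate block, length and GC content, and each library left out. The fit was also run on simulated data with independent noise for each gene and library. Those data held no shift of a whole library, and no result given here rests on them. Gene positions came from GENCODE M21 (GRCm38), copies from blastn 2.17.0, promoters from RefSeq (GRCm38.p6); Python 3.11.15, pandas 2.3.3, numpy 2.4.6 and matplotlib 3.10.9 were used.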

Additional observations from a re-analysis of the deposited data

How the results depend on the processing

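Of 272 alternative values of 17 named members in 16 fits, 0 passed the adjusted threshold and 6 changed sign; 14 members kept their sign in every fit run. The exceptions were Ndufv1, which was 0.0019 under quantile normalization and ran from -0.0623 to 0.0264 with each library left out, Ndufs7, which ran from -0.0251 (without CKO 1) to 0.0482, and Ndufa4, which ran from -0.13 to 0.0054 (without WT 3). The count of members past the adjusted threshold was 0 in every fit run, with limma. Members lower at an unadjusted p under 0.05 numbered 5 in the main fit, beside 4.36% of all tested genes. With length and GC trends taken out they numbered 3, beside 3.75% of the genes in that fit. They numbered 4 under quantile normalization (4.04% of all genes) or without the variance trend (4.1%), and 7 under robust eBayes (4.37%). With each library left out they numbered 4 (without WT 3, 3.48% of all genes) to 7 (without WT 2, 4.01%). Members higher at that level numbered 0 to 1 with each library left out (1 without CKO 1, and Ndufs5 without WT 2 or WT 3). Members with CKO below WT in every library numbered 8 to 13 with each library left out, 13 without CKO 3, where 2 libraries must lie below 3. Groups of 2 and 3 libraries separate more easily than groups of 3 and 3. The share of all tested genes was not formed for these counts or for those of members higher. They therefore cannot be set against the shares of the main comparison. Under quantile normalization 23 members were below 0, with 48.4% of all genes below 0.

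With the replicate number as a block, 8 members were lower at an unadjusted p under 0.05, beside 5.54% of all tested genes in that fit, and 0 passed the adjusted threshold. The same-numbered libraries correlated at 0.072, 0.006 and 0.101 in their deviations from the group means, and differently numbered ones at -0.119 to 0.036. These values do not settle whether the numbers pair the libraries. The labels state no pairing, and the main fit used none. The deposited FPKM give relative depth alone, so counting error cannot be separated from the spread between libraries.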
